A study of Mus musculus with 12 samples.

Results

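Hepcidin is the liver peptide hormone that controls how much iron enters the blood. This account covers 10 mouse liver genes that make hepcidin, carry the signals that set it, or take up, store and export iron: Hamp, Hamp2, Bmp6, Id1, Tfr2, Tfrc, Trf, Steap3, Fth1 and Slc40a1. A gene was taken where a probe set of the array named it and no other gene, with the brightest such probe set used, and 9 of the 10 were found among 22180 genes of the array measured this way. The exception is Trf, which encodes transferrin, the iron carrier of plasma: its only probe set also names Srprb, and its values are given apart. All 9 lay above the filter on dim signal and were among the 14031 genes tested.

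Liver RNA came from male mice of C57BL/6 background. They were 8 to 10 weeks old before the 16 weeks of feeding described next, and had first received the liquid control diet for 1 week. The 4 groups were Pparβ/δ-null mice given the ethanol liquid diet with 4% (v/v) ethanol, Pparβ/δ-null mice given the control liquid diet, wild-type mice given the ethanol diet, and wild-type mice given the control diet, in each case for 16 weeks. Each group of the feeding study had 10 mice, and 3 liver RNA samples of each group were hybridised, 1 per Affymetrix array. No label states that they came from different mice, and the p-values reflect only how far these samples differ. Below, livers stands for these samples. PPARβ/δ is a nuclear receptor that acts on genes of lipid and energy metabolism; the labels name no tissue limit for the null allele and do not give the strain in which it was made, so the loss of Ppard and other DNA carried along with the null allele cannot be told apart.

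Array medians lay between 5.55 and 5.62 log2 intensity, and 32.3% of the variance lay along the first principal component. The mean of the 8 hepatocyte markers, albumin among them, was between 12.09 and 12.35 log2 intensity on all 12 arrays, so the markers of the labelled tissue were present. Ppard itself read 7.88, 7.93 and 8.06 in null ethanol livers, 7.69, 7.90 and 7.91 in null control livers, 7.96, 7.77 and 7.85 in wild-type ethanol livers, and 7.64, 8.01 and 7.68 in wild-type control livers. The null minus wild-type difference averaged over the diets was 0.08 ± 0.08 (log2, standard error, adjusted p = 0.621). The sources used here do not say where this probe set lies relative to the deleted part, and it does not check the genotype labels.

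As background, hepatocytes release hepcidin when iron is plentiful or inflammation is present, and hepcidin binds ferroportin, the only known iron exporter of mammalian cells, and has it degraded. Iron raises hepcidin through BMP6, made largely by liver sinusoidal endothelial cells, whose receptor signals through SMAD proteins in hepatocytes with the help of HFE, hemojuvelin and transferrin receptor 2. Inflammation raises it through IL-6 and STAT3. Low hepcidin is a known feature of alcoholic liver disease in people and of some rodent feeding studies, which gives the ethanol comparison its interest.

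Mouse has a pair of neighbouring hepcidin genes. Hamp encodes the active hormone, while Hamp2, a close copy, does not lower body iron when overexpressed in mice. The start sites of both are shown because the elements known from Hamp, a BMP response element with the letters GGCGCC and a STAT3 site of the form TTCNNNGAA, can be read in them. The sequences are RefSeq promoter sequence of build GRCm38.p6, from 140 bases before to 10 bases after the start site, with these sites in capitals.
Hamp (chr7:30944020-30944169, minus strand): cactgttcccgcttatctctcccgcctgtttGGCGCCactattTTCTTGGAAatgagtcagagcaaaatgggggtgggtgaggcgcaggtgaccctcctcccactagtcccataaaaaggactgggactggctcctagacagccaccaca
Hamp2 (chr7:30924172-30924321, minus strand): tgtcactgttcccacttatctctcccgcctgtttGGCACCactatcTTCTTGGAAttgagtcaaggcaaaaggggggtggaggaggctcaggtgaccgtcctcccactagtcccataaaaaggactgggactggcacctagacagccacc

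Over windows reaching from 250 bases before to 50 bases after the start, 276 of 297 aligned bases (92.9%) were identical between the pair. GGCGCC stood at -109 in Hamp, and the aligned site of Hamp2, at -106, read GGCACC, which is the substitution G4A with positions counted from 1 at the 5′ end of the motif. The STAT3 form was present in both. Of 32851 RefSeq windows of this length, 11.9% held GGCGCC and 8.30% held TTCNNNGAA on either strand, so a match describes the letters and not a bound site.

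Hamp was bright in every liver. It read 13.03, 13.20 and 13.48 log2 intensity in null ethanol livers, 13.27, 13.30 and 12.68 in null control livers, 13.24, 13.04 and 13.30 in wild-type ethanol livers, and 12.68, 13.14 and 12.96 in wild-type control livers. Every pair of groups overlapped. Ethanol minus control was 0.15 ± 0.17 in null mice (95% confidence interval -0.22 to 0.53, adjusted p = 0.735) and 0.26 ± 0.17 in wild-type mice (-0.11 to 0.64, adjusted p = 0.506). Averaged over the genotypes it was 0.21 ± 0.12 (-0.06 to 0.48, adjusted p = 0.509), so a fall of Hamp with this diet was not seen, and the interval reaches down only to -0.06. Null minus wild-type averaged over the diets was 0.10 ± 0.12 (-0.17 to 0.36, adjusted p = 0.706). The Hamp signal lay between the 99.4 and 99.9 percentile of gene-level values on its array.

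Hamp2 varied far more between livers, over a range of 3.02 on the log2 scale against 0.80 for Hamp. It read 8.34, 7.64 and 8.86 in null ethanol livers and 10.66, 9.27 and 9.02 in null control livers, against 8.47, 8.17 and 9.29 in wild-type ethanol livers and 8.79, 9.66 and 8.05 in wild-type control livers. The null ethanol livers lay below all null control livers, while the wild-type diet groups overlapped. Ethanol minus control was -1.37 ± 0.48 in null mice (95% interval -2.40 to -0.34), with an unadjusted p of 0.0130 and an adjusted p of 0.331, so it did not pass the test over all genes. In wild-type mice it was -0.19 (adjusted p = 0.889), and the difference between the genotypes, -1.18 ± 0.67, did not pass either (adjusted p = 0.417). Whether the probes of this pair tell their transcripts apart was not tested, since probe sequences were not used here.

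**Figure D1:**
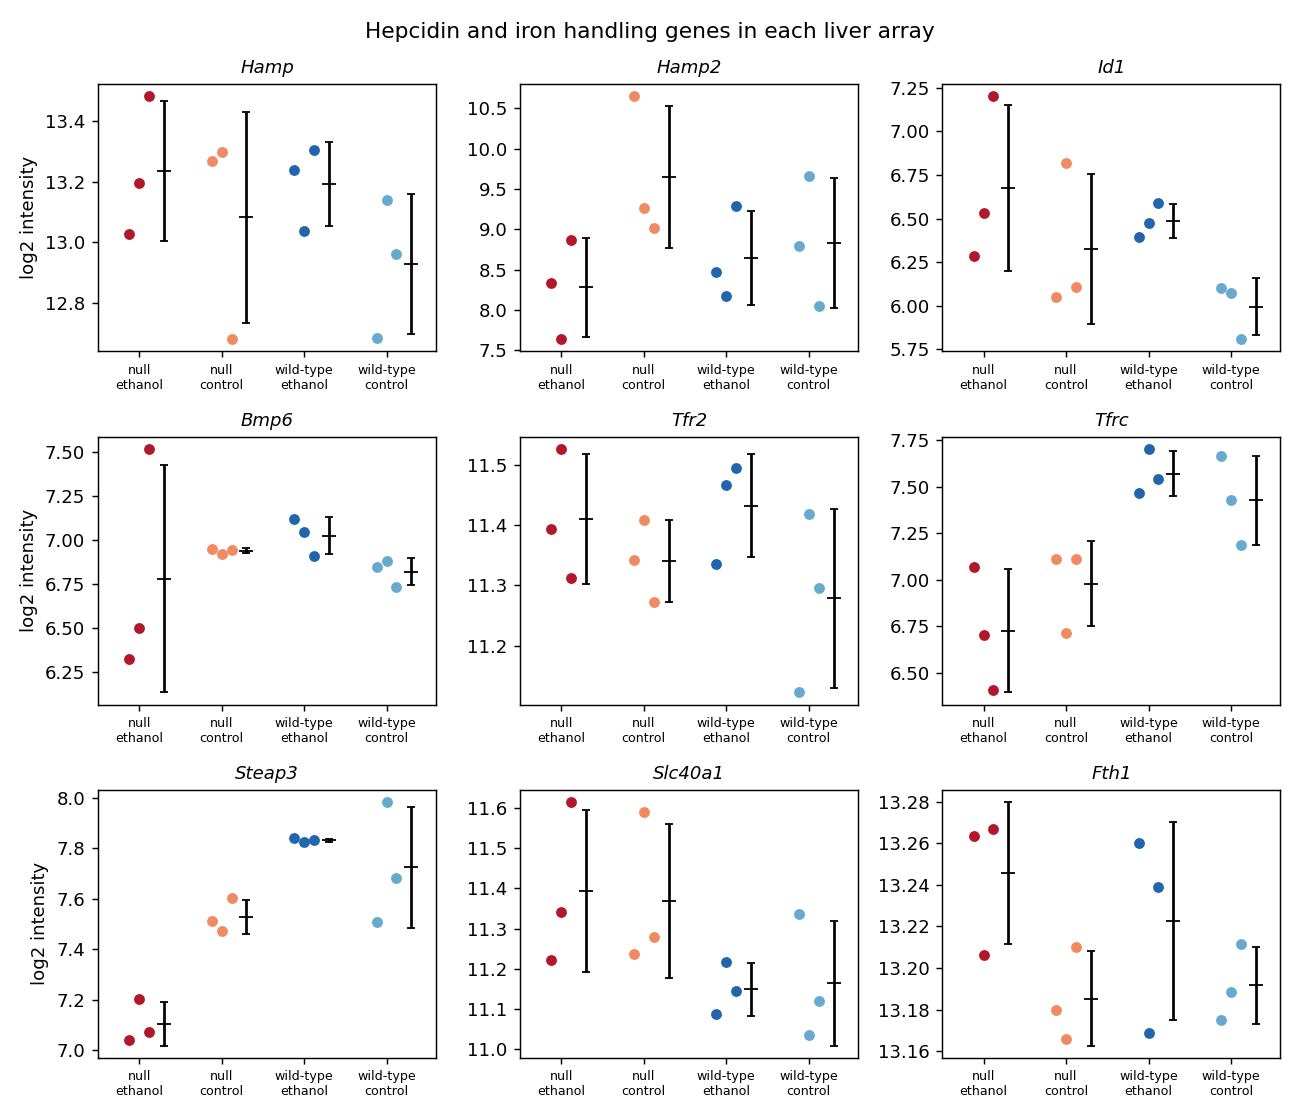
Log2 intensity (vertical axes, each with its own range that does not start at 0) of the 9 genes in the 4 groups, with 1 point per array and a bar giving the mean ± SD of 3 arrays. Tfrc sits lower in null livers than in wild-type livers on both diets. Steap3 does so on the ethanol diet and overlaps on the control diet. Hamp overlaps between all groups, and Fth1 spans a range of only 0.10.

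The signal upstream of hepcidin is carried by Bmp6, the ligand, and read out by Id1, a direct target of BMP and SMAD signalling. Bmp6 read 6.32, 6.50 and 7.52 in null ethanol livers, 6.95, 6.92 and 6.94 in null control livers, 7.12, 7.04 and 6.91 in wild-type ethanol livers, and 6.85, 6.88 and 6.73 in wild-type control livers. The null ethanol group held both the lowest and the highest of the 12 values. Ethanol minus control was -0.16 in null mice (adjusted p = 0.784) and 0.21 in wild-type mice (adjusted p = 0.718, groups not overlapping). Null minus wild-type was 0.12 on the control diet (adjusted p = 0.800), with all null values above all wild-type values. It was -0.25 on the ethanol diet (adjusted p = 0.635) and -0.06 averaged over the diets. Null ethanol replicate 3 decides this reading: without it the ethanol diet difference was -0.62 (adjusted p = 0.00783) and the averaged difference -0.25 (adjusted p = 0.0416), both past the threshold.

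In that group the replicate highest for Bmp6 was also highest for markers of the endothelial cells that make Bmp6. The mean of 12 sinusoidal endothelial markers was 8.49, 8.42 and 9.07 in the null ethanol livers, in the same replicate order, 8.91, 8.66 and 8.78 in null control livers, 8.87, 9.03 and 9.08 in wild-type ethanol livers, and 9.11, 9.02 and 8.90 in wild-type control livers. Over the 12 arrays Pearson's r of Bmp6 with this mean was 0.68 and Spearman's rho 0.35. Without null ethanol replicates 1 and 2, r was 0.20. Null ethanol replicate 3 also had the lowest hepatocyte marker mean, 12.09, and r of Bmp6 with that mean was -0.52. The part of the endothelial signal in the Bmp6 values was not tested. In whole liver, fewer cells of a type and less RNA per cell cannot be told apart.

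Id1 read 6.28, 6.53 and 7.20 in null ethanol livers, 6.05, 6.82 and 6.11 in null control livers, 6.39, 6.47 and 6.59 in wild-type ethanol livers, and 6.10, 6.08 and 5.81 in wild-type control livers. The wild-type ethanol livers all lay above the wild-type controls, by 0.49 ± 0.23 (95% interval 0.0023 to 0.98, unadjusted p = 0.0491, adjusted p = 0.342). In null mice the difference was 0.35 with overlapping groups (adjusted p = 0.537). Averaged over the genotypes Id1 was 0.42 ± 0.16 higher on ethanol by its estimate, with an unadjusted p of 0.0211 and an adjusted p of 0.341, so it did not pass.

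**Figure D2:**
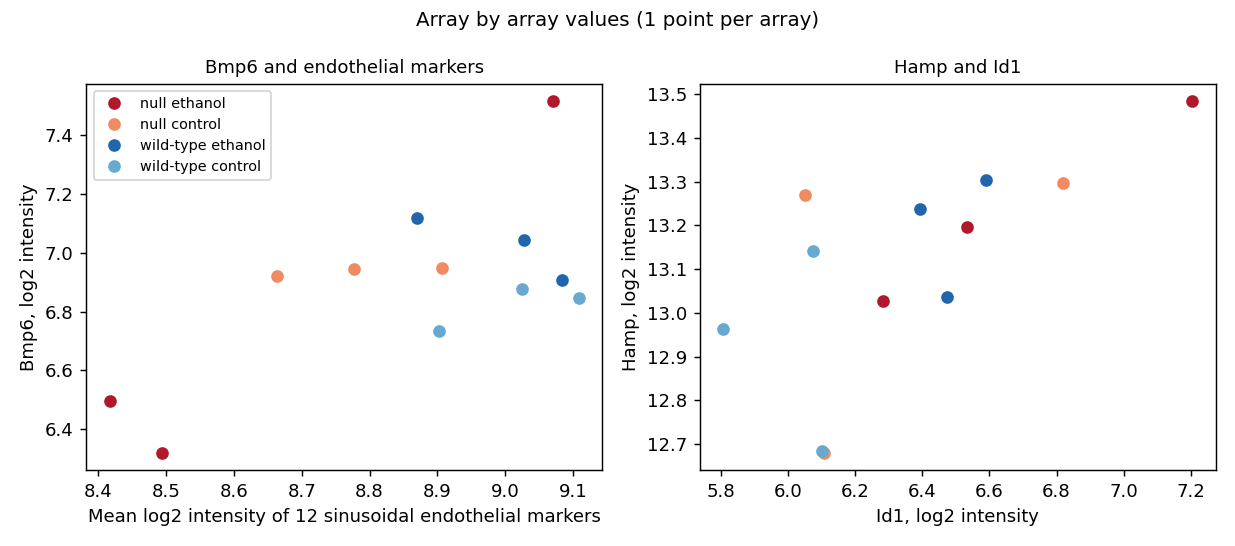
Left, Bmp6 against the mean of 12 sinusoidal endothelial markers; right, Hamp against Id1, all in log2 intensity on axes that do not start at 0, with 1 point per array and colours for the 4 groups. Null ethanol replicates 1 and 2 lie at the low end of both measures on the left, and null ethanol replicate 3 is the highest array for Bmp6, Hamp and Id1.

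Null ethanol replicate 3 was the highest of the 12 arrays for 5 of the 9 genes and the lowest for 1, Tfrc. How often this array was highest or lowest over all tested genes was not counted, so this is not a result about the 9. Tfr2, the transferrin receptor of hepatocytes that takes part in iron sensing, stayed between 11.12 and 11.53 on all arrays. Its ethanol minus control difference was 0.11 ± 0.07 averaged over the genotypes (adjusted p = 0.528), and its null minus wild-type difference was 0.02 ± 0.07.

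Iron uptake held the members that differed between the genotypes. Tfrc encodes transferrin receptor 1, which brings transferrin-bound iron into cells, and its messenger RNA is known to be stabilised by iron regulatory proteins when iron in the cell is low. Steap3 encodes the endosomal ferrireductase that reduces the iron released from transferrin so that it can leave the endosome. Averaged over the diets both were lower in null livers, Tfrc at 0.639 and Steap3 at 0.726 of the wild-type level. On the control diet alone neither passed, and the Steap3 groups overlapped.

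The start of each is shown as background for these results. Tfrc holds GGCGCC and ACGTG, the core of a hypoxia response element, and Steap3, at 1 of its 4 RefSeq start sites, holds AGGTCA, the half-site of nuclear receptors, 4 times (in capitals as TGACCT where it lies on the other strand). The Steap3 window was chosen after its matches were seen.
Tfrc (chr16:32608756-32608905, plus strand): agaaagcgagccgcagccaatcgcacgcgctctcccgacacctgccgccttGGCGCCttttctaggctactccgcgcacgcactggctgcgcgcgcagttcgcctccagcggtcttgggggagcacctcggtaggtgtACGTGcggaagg
Steap3 (chr1:120270261-120270410, minus strand): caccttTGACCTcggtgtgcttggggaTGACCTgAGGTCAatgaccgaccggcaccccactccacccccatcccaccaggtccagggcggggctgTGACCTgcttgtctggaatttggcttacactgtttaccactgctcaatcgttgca

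Of the 32851 windows, 19.6% held ACGTG and 16.3% held AGGTCA at least once, and 5 windows (0.0152%) held at least 4 copies. The cut of 4 copies was itself taken from Steap3, so this share does not measure how unusual its match is. The PPAR form, AGGTCA repeated with 1 base between the copies, stood in 13 windows (0.0396%) and in none of the 14 windows found for 7 of the 10 genes. These are counts of letters and say nothing of which factor binds.

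Tfrc read 7.07, 6.70 and 6.41 in null ethanol livers and 7.11, 6.71 and 7.11 in null control livers, against 7.47, 7.70 and 7.54 in wild-type ethanol livers and 7.66, 7.43 and 7.19 in wild-type control livers. All 6 null values lay below all 6 wild-type values. Null minus wild-type averaged over the diets was -0.65 ± 0.12 (95% interval -0.91 to -0.38, adjusted p = 0.00649). On the ethanol diet it was -0.84 ± 0.17 (-1.21 to -0.47, adjusted p = 0.0238). On the control diet it was -0.45 ± 0.17, with an unadjusted p of 0.0211 and an adjusted p of 0.144, and so did not pass, although the groups did not overlap. That the gap differs between the diets was not shown, since the interaction was -0.40 ± 0.24 (adjusted p = 0.446). The ethanol diet call was lost without wild-type ethanol replicate 2 (adjusted p = 0.109) or 3 (0.0877), or null ethanol replicate 2 (0.0723) or 3 (0.0714). The averaged call held in all 19 alternatives, with adjusted p between 0.00313 and 0.0207.

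Steap3 read 7.04, 7.20 and 7.07 in null ethanol livers and 7.51, 7.47 and 7.60 in null control livers, against 7.84, 7.83 and 7.83 in wild-type ethanol livers and 7.51, 7.98 and 7.68 in wild-type control livers. The null ethanol livers stood apart below all other livers. On the ethanol diet null minus wild-type was -0.73 ± 0.11 (95% interval -0.97 to -0.49, adjusted p = 0.00338), and averaged over the diets it was -0.46 ± 0.08 (-0.63 to -0.29, adjusted p = 0.00352). On the control diet it was -0.20 ± 0.11, with overlapping groups (adjusted p = 0.320).

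Ethanol minus control for Steap3 was -0.42 ± 0.11 in null mice, with groups that did not overlap, an unadjusted p of 0.0020 and an adjusted p of 0.257. In wild-type mice it was 0.11 (groups overlapping). The interaction, -0.53 ± 0.16, had an unadjusted p of 0.00459 and an adjusted p of 0.204. It passed when wild-type control replicate 2, the highest wild-type value, was left out (-0.66, adjusted p = 0.0421). The ethanol diet and averaged calls for Steap3 held in all 20 and all 19 alternatives run.

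Trf, read from the probe set shared with Srprb, was between 13.70 and 13.96 on all arrays. Its differences lay between -0.07 and 0.02 over the 7 comparisons, and none passed.

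Storage and export showed less. Fth1 encodes the heavy chain of ferritin, which oxidises and stores iron, and lay between 13.17 and 13.27 on all arrays. Null minus wild-type was 0.01 ± 0.05 (95% interval -0.10 to 0.12) and ethanol minus control 0.05 ± 0.05 (-0.07 to 0.16), each averaged over the other factor. Ferritin is largely set by translation, which arrays of messenger RNA do not measure.

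Slc40a1 encodes ferroportin, the exporter on which hepcidin acts. It read 11.22, 11.34 and 11.61 in null ethanol livers and 11.24, 11.59 and 11.28 in null control livers, against 11.09, 11.22 and 11.14 in wild-type ethanol livers and 11.34, 11.04 and 11.12 in wild-type control livers. The null ethanol livers all lay above the wild-type ethanol livers, by a narrow margin, with a difference of 0.24 (adjusted p = 0.365). Averaged over the diets null minus wild-type was 0.22 ± 0.09 (95% interval 0.03 to 0.42), with an unadjusted p of 0.0257 and an adjusted p of 0.160, so it did not pass. Ethanol minus control averaged 0.00.

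**Figure D3:**
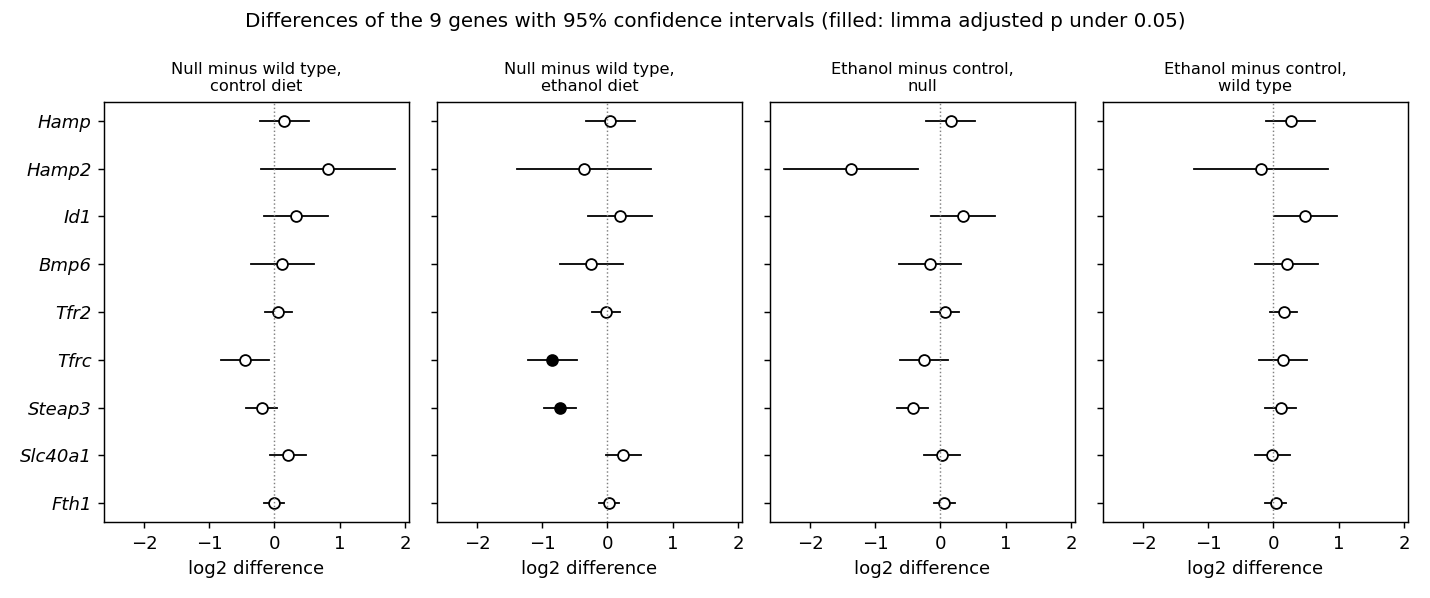
Log2 differences (horizontal axes) of the 9 genes with 95% confidence intervals in 4 comparisons, filled where the limma adjusted p was under 0.05. The filled points are Tfrc at -0.84 and Steap3 at -0.73, both for null minus wild-type on the ethanol diet.

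Counted together, 2 of the 9 genes fell in null against wild-type livers on the ethanol diet, where 1.79% of all tested genes were called, and 2 of 9 averaged over the diets, where 7% were called. On the control diet 0 of 9 passed limma's test, where 5.1% of all genes were called. For ethanol against control 0 of 9 passed limma's test in null mice, where 0.00713% of all genes were called, 0 in wild-type mice, where 0.0927% were, and 0 averaged over the genotypes, where 0.0143% were. For the interaction 0 of 9 passed, where 0.0143% of all genes were called. At an unadjusted p under 0.05 there was 1 of the 9 for null against wild-type on the control diet, beside 22.1% of all genes. For ethanol against control there were 2 in null mice, beside 12.2% of all genes, 1 in wild-type mice, beside 14.5%, and 2 averaged over the genotypes, beside 12.1%. For the interaction there was 1, beside 15.0% of all genes. Each of these unadjusted counts is within 1 gene of the share of all genes, so they are not a result about the 9. For null against wild-type there were also 2 on the ethanol diet, beside 16.2% of all genes, and 3 averaged over the diets, beside 21.4%. These 2 counts include the called Tfrc and Steap3 and are not read as a result about the 9 either. The median difference of the 9 genes was 0.02 averaged over the diets, beside -0.00 for all genes.

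Groups without overlap were common across the array, which bears on how such cases are read. Null ethanol and null control values did not overlap for 2 of 9 genes, beside 18.6% of all genes, and wild-type ethanol and wild-type control values for 2 of 9, beside 19.4%. Null and wild-type values did not overlap for 2 of 9 on the control diet, beside 24.7%, and for 3 of 9 on the ethanol diet, beside 24.1%. All 6 null against all 6 wild-type values did not overlap for 1 of 9 genes, Tfrc, beside 3.58% of all genes. All 6 ethanol against all 6 control values overlapped for all 9, beside 0.556% of all genes without overlap.

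The other genes of the BMP and SMAD arm, 26 in all, included the clearest genotype difference of the pathway. Hfe, the gene mutated in the common form of hereditary haemochromatosis and needed for normal hepcidin output, read 8.37, 8.04 and 8.20 in null ethanol livers and 8.44, 8.35 and 8.52 in null control livers, against 8.99, 9.06 and 9.33 in wild-type ethanol livers and 9.16, 9.10 and 9.04 in wild-type control livers. No null value reached a wild-type value. Null minus wild-type was -0.79 ± 0.08 averaged over the diets (adjusted p = 4.34e-05), -0.92 on the ethanol diet (adjusted p = 0.000646) and -0.66 on the control diet (adjusted p = 0.00532), and these calls held in every alternative run. For Hamp the same averaged difference was 0.10, with the interval of -0.17 to 0.36 given above.

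In that arm 2 of 26 genes fell and 0 rose averaged over the diets. This count is near the share of all genes called there, 7%. The median was -0.05 beside -0.00 for all genes. Besides Hfe, the gene that fell was Bmpr1a, a type I BMP receptor of hepatocytes, at -0.32 ± 0.07 (adjusted p = 0.0174). On the control diet 3 fell, where 5.1% of all genes were called. They were Hfe, Bmpr1a (-0.42, adjusted p = 0.0337) and Fgl1, a hepatocyte factor that binds BMP6 in mice, at -1.07 (adjusted p = 0.0409). The control diet calls were kept in 12 of 20 alternatives for Bmpr1a (adjusted p up to 0.112, without wild-type control replicate 3) and in 8 of 20 for Fgl1 (up to 0.136, without null control replicate 2). On the ethanol diet 2 fell, where 1.79% of all genes were called: Hfe and Id3, a second BMP target of the Id family.

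Id3 read 7.39, 7.57 and 7.68 in null ethanol livers and 6.97, 8.25 and 7.66 in null control livers, against 8.25, 8.74 and 8.74 in wild-type ethanol livers and 7.83, 7.81 and 7.76 in wild-type control livers. The wild-type ethanol livers were the high group, apart from 1 null control liver that matched the lowest of them. Null minus wild-type on the ethanol diet was -1.03 ± 0.24 (adjusted p = 0.0493), a call kept in 8 of 20 alternatives (adjusted p up to 0.191, without wild-type ethanol replicate 2). For Id1 the same difference was 0.19, with overlapping groups. Ethanol against control gave 0 calls in this arm in any comparison, with Smad9 at 0.64 (adjusted p = 0.286) the smallest p averaged over the genotypes.

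Of 16 genes of the IL-6 and STAT3 arm and the hepatocyte factors that drive Hamp, 12 were tested. Averaged over the diets 1 rose and 1 fell, where 7% of all genes were called. The gene that rose was Usf2, a transcription factor whose gene neighbours Hamp and which is known to act on hepcidin (0.36, adjusted p = 0.0132). The gene that fell was Saa2, an acute phase gene that IL-6 induces (-1.72, adjusted p = 0.0267). On the control diet 1 rose and 1 fell, where 5.1% of all genes were called. Saa2 was -2.89 there (adjusted p = 0.0167), and Creb3l3, a membrane-bound factor that binds the hepcidin promoter, rose by 0.33 (adjusted p = 0.0439). On the ethanol diet 0 of the 12 were called, where 1.79% of all genes were. No difference in the list was below -0.55 on that diet, so the averaged Saa2 value rests mainly on the control diet. Hamp, another target of this arm, had a null minus wild-type difference of 0.15 on the control diet (adjusted p = 0.648). The Saa2 calls were kept in 12 of 19 alternatives averaged over the diets and 17 of 20 on the control diet, and that of Creb3l3 in 8 of 20 (adjusted p up to 0.139, without wild-type control replicate 1). The Usf2 call was kept in all 19.

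Of 27 further genes of iron uptake, storage and export, 23 were tested and 0 passed limma's test in any of the 7 comparisons. Averaged over the diets 4 were under an unadjusted p of 0.05, beside 21.4% of all genes, with Epas1, which encodes the hypoxia factor HIF-2α, at 0.28 (adjusted p = 0.0791), Ireb2, which encodes iron regulatory protein 2, at -0.26 (adjusted p = 0.137), and Slc25a37, a mitochondrial iron importer, at 0.26 (adjusted p = 0.151). Averaged over the genotypes 1 was, beside 12.1% of all genes: Hif1a, at -0.21 (adjusted p = 0.264).

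Of 13 genes that recover iron from heme, averaged over the diets 1 rose and 2 fell, where 7% of all genes were called. Slc46a1, a heme and folate carrier, rose by 0.30 ± 0.06 (adjusted p = 0.0113), with all null above all wild-type values. Hmox1, heme oxygenase 1, which opens the heme ring, was -0.38 ± 0.10 (adjusted p = 0.0452), and Cd163, the macrophage receptor for haptoglobin-bound haemoglobin, was -0.56 ± 0.15 (adjusted p = 0.0421). The Slc46a1 call was kept in all 19 alternatives, that of Hmox1 in 7 and that of Cd163 in 9, and without null control replicate 2 their adjusted p was 0.110 for Hmox1 and 0.103 for Cd163. In wild-type mice, where 0.0927% of all genes were called for ethanol, Blvrb, a biliverdin reductase, rose by 0.61 ± 0.10 (adjusted p = 0.0420). That was the one ethanol call in the 4 pathway lists, and it held in 8 of 20 alternatives (adjusted p up to 0.185, without wild-type control replicate 3).

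**Figure D4:**
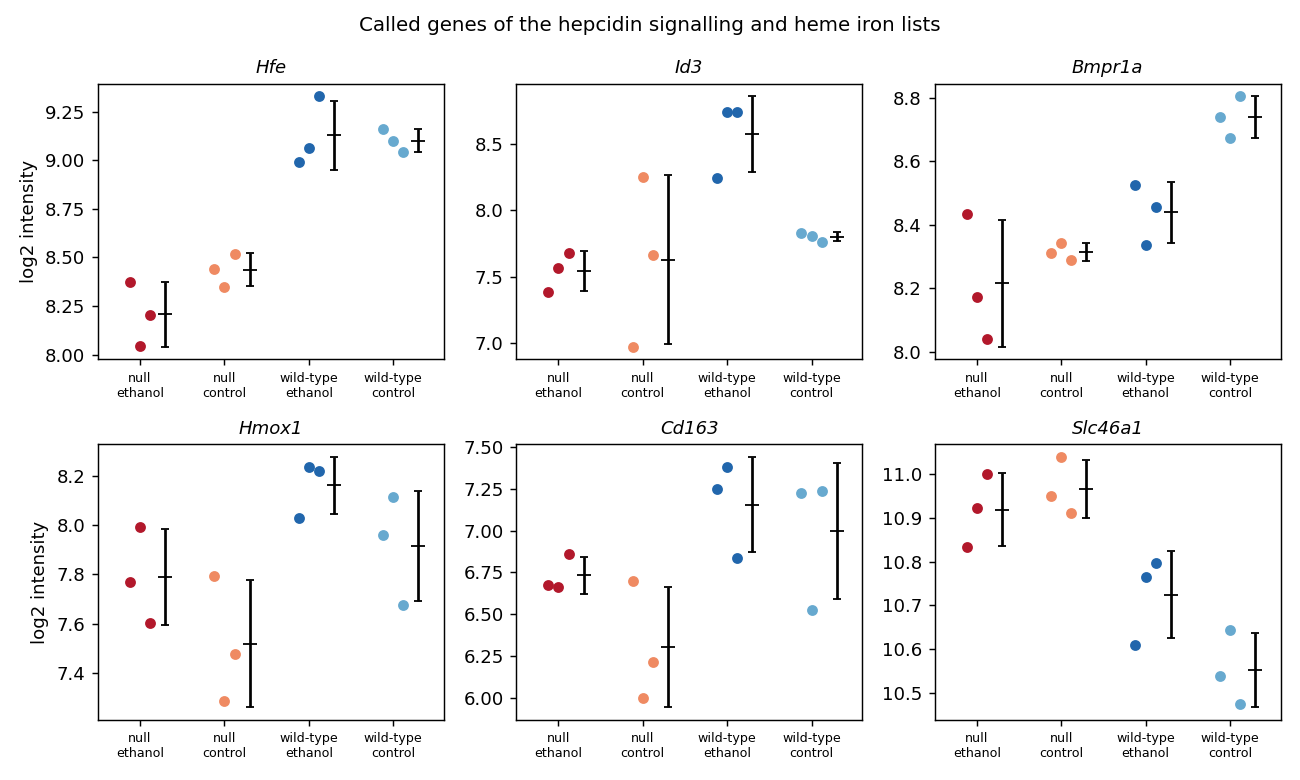
Log2 intensity (vertical axes, each with its own range that does not start at 0) of 6 called genes of the BMP and SMAD list and of the heme iron list, with 1 point per array and a bar for the mean ± SD of 3 arrays. Hfe shows no overlap between null and wild-type livers, and Id3 is highest in wild-type ethanol livers.

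Markers of macrophages and Kupffer cells, which also recover heme iron, were lower in null livers. Averaged over the diets 12 of 14 fell, where 7% of all genes were called. The median was -0.52, and Cd5l (-0.94) and Marco (-0.73) had the smallest p. Their summed intensity was 4672 to 6749 in null ethanol livers, 3688 to 4987 in null control livers, 7343 to 9270 in wild-type ethanol livers and 5845 to 8399 in wild-type control livers. Cd163 is itself one of these markers. The part of these cells in the lower Hmox1, Cd163, Tfrc, Steap3 and Hfe values was not tested.

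Of 12 sinusoidal endothelial markers 2 fell averaged over the diets, Pecam1 (-0.37) and Tek (-0.47), where 7% of all genes were called. The median over the list was -0.32. Erythroid cells carry much Tfrc, and of 10 erythroid markers 4 were on the array and 3 passed the filter (Slc4a1, Klf1 and Epor). None of the 3 was called for genotype, and the summed intensity of the 4 was 250 to 267 in null ethanol livers, 263 to 283 in null control livers, 267 to 299 in wild-type ethanol livers and 266 to 277 in wild-type control livers. Epor was -0.15 averaged over the diets (limma unadjusted p = 0.0426, adjusted p = 0.213), beside 0.04 for Slc4a1 and -0.03 for Klf1. Over the 12 arrays Pearson's r of Tfrc with the mean of the 4 was 0.83, the highest of the 7 marker lists. With group means taken off it was 0.57. The part of erythroid cells in the Tfrc values was not tested. In the hepatocyte, stellate, cholangiocyte, and lymphocyte and neutrophil lists 0 markers were called for genotype averaged over the diets.

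The genes whose values ran most like those of Hamp, Tfrc and Id1 over the 12 arrays are given as a description, since the best 5 of 14031 genes had to correlate highly. For Hamp they were Sfxn2 (Pearson's r 0.82), Adcy7 (0.81), Lrrtm1 (0.80), Map4 (0.79) and Slc38a7 (0.79). For Tfrc they were Msantd2 (0.92), Vezt (0.92), Hal (0.92), Far1 (0.91) and Flt1 (0.91), and for Id1 they were Snhg6 (0.90), Cln6 (0.88), Cyp4f13 (0.87), Mcoln1 (0.87) and Rtn2 (0.87). These arrays share their normalisation and fall into groups, so a genotype difference common to 2 genes raises r.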

How the data were processed

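Liver total RNA of 12 samples was measured on the Mouse Gene 2.0 ST array of Affymetrix, per the labels. The authors deposited 1 intensity per probe set and array; the submitters' processing notes name RMA as the normalisation, with no version. They ran from 1.816 to 20155.988 on a linear scale, and log2 was taken here. Of 41345 probe sets, 23521 named exactly 1 gene, 1814 several and 16010 none. The brightest probe set of each gene gave 22180 genes. A gene was tested if above the 40th percentile of its array on at least 3 arrays, which left 14031.

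One limma model (version 3.58.1, R 4.3.3) with 4 group means took in all 12 arrays, with 8 residual and 4.95 prior degrees of freedom and 7 contrasts: the ethanol effect within null and within wild-type mice, the genotype effect within either diet, the interaction and both averages. A call means a p under 0.05 after Benjamini-Hochberg adjustment over all tested genes. The steps were tested on simulated data. The number of arrays limits the precision.

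The members, the 4 pathway lists and the 7 marker lists (151 entries, 140 with a probe set of their own) were chosen with earlier results of these data known. Named were all members, each list gene called and the 3 smallest p per pathway list (the 2 smallest per marker list), and the 5 genes most like Hamp, Tfrc and Id1; not every gene so chosen is printed. Promoter sequence is from RefSeq GRCm38.p6, matched by symbol. Alternatives were other normalisations, filters and fits, and each array left out.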

Additional observations from a re-analysis of the deposited data

How the results depend on the processing

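Of the values of single genes, 567 kept direction and side of the threshold under the alternatives that kept all arrays, 22 lost their call and 9 changed sign; with 1 array left out, 829 did not change, 74 lost their call, 3 gained one and 42 changed sign. All sign changes concern values that did not pass in either setting. Genes called after quantile normalisation again were 5 for ethanol averaged. With no filter they were 0 (ethanol in null), 7 (ethanol in wild-type), 393 (null on control diet) and 1 (interaction), and with the 50th percentile on 6 arrays 0 (interaction). With trend and robust they were 24 (ethanol in wild-type) and 4 (ethanol averaged), and with the 6 arrays alone 0 (ethanol in null) and 239 (null on control diet). With replicate number as a block they were 0 for ethanol in null mice and 0 for ethanol averaged, and the block changed no member's call. The cause of these moves was not tested. Deviations of same-numbered arrays from their group means had r from -0.15 to 0.19 over all tested genes, above 0.1 in 2 of 18 pairs. These values cannot show a pairing that touches only some genes, and the labels give the number no meaning.

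With 1 array left out, genes called ranged 0 to 3 (ethanol in null), 0 to 811 (ethanol in wild-type), 193 to 1306 (null on control diet), 108 to 320 (null on ethanol diet), 0 to 84 (interaction), 0 to 293 (ethanol averaged) and 621 to 1317 (genotype averaged). The highest counts of ethanol in wild-type, interaction, ethanol averaged and both genotype comparisons other than on the ethanol diet came without wild-type control replicate 2. Members called ranged 0 to 1 for the interaction, 1 to 2 for null on the ethanol diet and 2 to 3 for genotype averaged.

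Sign changes with all arrays were, on quantile normalisation again, Fth1 for ethanol in wild-type (-0.0096) and Tfr2 for null on ethanol (0.00086), and on median centring Slc40a1 for ethanol in null (-0.012), in wild-type (0.0021), interaction (-0.014) and ethanol averaged (-0.0050), and Fth1 for null on control (0.024), on ethanol (-0.00047) and interaction (-0.024). With 1 array left out, Bmp6 ranged -0.16 to 0.14 (ethanol averaged), -0.53 to 0.069 (ethanol in null) and -0.25 to 0.051 (genotype averaged). Fth1 ranged -0.019 to 0.0036 (null on control), -0.0039 to 0.043 (null on ethanol) and -0.0051 to 0.018 (genotype averaged). Hamp ranged -0.31 to 0.013 (interaction), -0.047 to 0.26 (ethanol in null) and -0.081 to 0.15 (null on ethanol). Hamp2 ranged -0.027 to 0.43 (genotype averaged) and -0.58 to 0.23 (ethanol in wild-type). Id1 ranged -0.41 to 0.10 (interaction) and -0.077 to 0.38 (null on ethanol). Slc40a1 ranged -0.051 to 0.059 (ethanol averaged), -0.072 to 0.15 (interaction), -0.087 to 0.13 (ethanol in null) and -0.080 to 0.071 (ethanol in wild-type). Tfr2 ranged -0.017 to 0.13 (null on control), -0.080 to 0.028 (null on ethanol) and -0.019 to 0.055 (genotype averaged), and Tfrc -0.14 to 0.025 (ethanol averaged).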
